A study of Sus scrofa domesticus with 6 samples.

Results

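The immediate early genes were followed in the mandibular condyle, the joint end of the lower jaw where it grows by cartilage, of miniature pig embryos of 85 and 45 days. Of the 10 names chosen, FOS, JUN, JUNB, EGR1, EGR2, EGR3, ATF3, DUSP1 and KLF6 each matched 1 row of the 25322 gene rows of the deposited table by gene name, FOSB matched none and is not analysed here, and all 9 matched genes passed the filter on low counts, as part of 15022 genes tested. The groups were 3 libraries of day 85 condyles and 3 libraries of day 45 condyles, with no treatment, mutant or strain contrast in the labels. Total RNA was sequenced after removal of ribosomal RNA, and the series follows ossification of the condylar cartilage. The labels name chondrocytes and osteocytes as the source and do not say that each library came from its own animal, nor whether embryos were pooled, so the p-values below cover the variation among these 6 libraries, which may be technical.

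Immediate early genes are transcribed within minutes of a stimulus without the need for new protein, through factors such as SRF, its ELK partners and CREB that growth factor, stress and mechanical signals switch on. FOS and JUN proteins pair through leucine zippers into the transcription factor AP-1, EGR proteins are zinc finger factors, and DUSP1 removes phosphate from MAP kinases and so shuts down the signal that induces it. In mice, loss of Fos blocks osteoclast formation, and AP-1 members also act in chondrocytes and osteoblasts. Transcripts of these genes can also be induced while tissue is cut and handled.

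At day 85 the 9 measured genes all had higher mean levels than at day 45, and 51.8% of all tested genes had a positive log2 fold change. FOS, EGR3, DUSP1 and KLF6 passed the test and rose 6.02-fold, 6.05-fold, 2.69-fold and 1.43-fold, while JUN, JUNB, EGR1, EGR2 and ATF3 did not pass. Called higher were 4 of 9, and of all tested genes 3.90% were called higher. EGR3, 1 of the 4, passed the filter on low counts only through the day 85 libraries, where it was high. The 3 day 85 libraries lay above the 3 day 45 libraries for 8 of the 9 genes, all but ATF3, as for 17.4% of all tested genes. At an unadjusted p under 0.05, 8 of 9 were higher, against 15.8% of all tested genes. The median log2 fold change was 1.49 over the 9 genes and 0.02 over all tested genes. The names were chosen with earlier results of these data known, so these shares are no independent test. Levels are given as CPM, counts scaled by TMM to a common library size, and each age has 3 libraries. Every fold change sets day 85 over day 45. The test was the edgeR quasi-likelihood F test, p-values were adjusted over all tested genes by Benjamini and Hochberg, and genes under 0.05 were called. The 4 calls depended on which libraries entered. Without day 85 replicates 1, 2 and 3 in turn, 3, 5 and 1 of the 9 genes were called, and without day 45 replicates 1, 2 and 3 in turn, 0, 0 and 0 were, with 7, 7 and 6 at an unadjusted p under 0.05. Of all tested genes the same fits called 0.0849%, 12.3% and 0.611% higher without day 85 replicates 1, 2 and 3, and 0.0262%, 0% and 0.0912% higher without day 45 replicates 1, 2 and 3. At an unadjusted p under 0.05, 1497, 1724 and 2074 of all tested genes were higher without day 45 replicates 1, 2 and 3. The 9 log2 fold changes stayed positive in all 6 fits, except that of ATF3 without day 85 replicate 1.

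**Figure D1:**
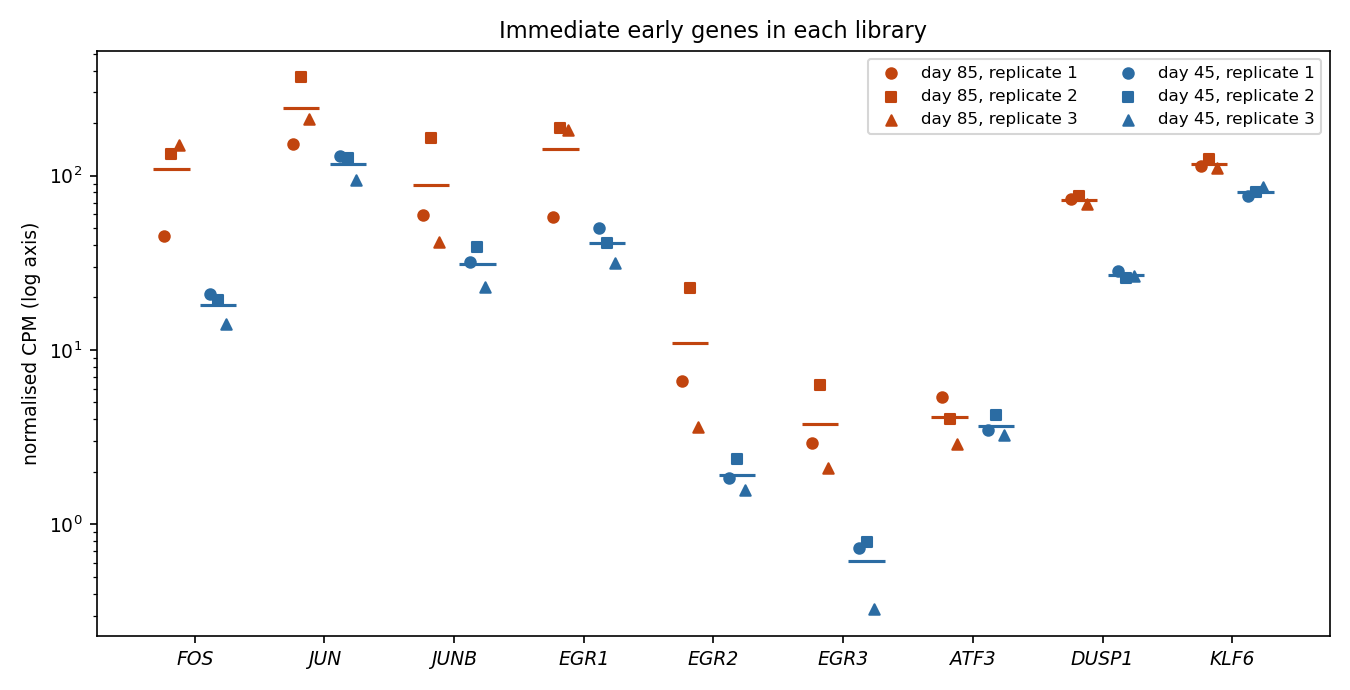
Normalised CPM on a log axis for the 9 genes, with day 85 libraries in red to the left of day 45 libraries in blue; marker shapes give the replicate number and bars the mean of 3 libraries. DUSP1 and KLF6 are tight within each age, whereas FOS and EGR1 are low in day 85 replicate 1 and JUNB, EGR2 and EGR3 are high in day 85 replicate 2.

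The libraries were not alike within either age, and this bears on the values that follow. Total counts ran from 12546729 to 16559616 over the 6 libraries. Summed CPM of 10 osteoclast markers was 1906, 13564 and 2333 in day 85 replicates 1, 2 and 3. In day 45 replicates 1, 2 and 3 it was 309, 1322 and 392. That of 10 skeletal muscle markers in the table was 32048, 2212 and 26237 at day 85, against 6999, 3624 and 8162 at day 45. At both ages replicate 2 had the highest osteoclast sum and the lowest skeletal muscle sum. Markers of Schwann cells, the myelinating glia of nerves, summed to 260, 2710 and 250 CPM at day 85 and to 168 to 316 CPM at day 45 over 8 genes. Of the cartilage markers, 9 genes summed to 1376, 5209 and 3043 CPM at day 85 and to 13148 to 16154 CPM at day 45. Endothelial markers summed to 1021 to 1565 CPM at day 85 and to 391 to 638 CPM at day 45, with 5 of 9 tested genes called higher, and macrophage markers to 304 to 849 CPM at day 85 and to 98.7 to 180 CPM at day 45, with 4 of 9 called higher. Of the erythroid, mural and adipocyte markers 2 of 7, 2 of 9 and 2 of 3 were called higher. Of the cartilage markers 3 of 9 were called lower. Of the osteoclast, osteoblast, skeletal muscle, Schwann cell, granulocyte and tendon markers 0 were called in either direction. Of all tested genes 3.90% were called higher and 2.66% lower. The part of these cells in the levels that follow was not tested. In such bulk samples, fewer cells of a type and less RNA per cell cannot be told apart.

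Among the AP-1 subunits, FOS, the founding FOS protein, had 44.9, 134 and 150 CPM in day 85 replicates 1, 2 and 3, against 21.0, 19.4 and 14.1 CPM in the day 45 libraries. Every day 85 library lay above every day 45 library, and day 85 replicate 1 was well below the other day 85 libraries. The mean over the day 85 libraries was 109 ± 56.4 CPM, and over those of day 45 it was 18.2 ± 3.59 CPM (SD, n = 3 each). The log2 fold change of 2.59 (SE 0.47) passed in edgeR's quasi-likelihood test with an adjusted p of 0.0372. FOS also passed without day 85 replicate 1 (log2 fold change 2.94, adjusted p = 0.0221) and without day 85 replicate 2 (2.42, adjusted p = 0.0199), but not without day 85 replicate 3 (2.30, adjusted p = 0.0882) or any day 45 library (adjusted p = 0.147, 0.131 and 0.1001 without replicates 1, 2 and 3), nor in limma-voom (adjusted p = 0.0519). The deposited table, for which no genome build is stated in the sources used here, puts FOS on chromosome 7 from 104293657 to 104297121.

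JUN, the main partner of FOS, had 152, 366 and 212 CPM at day 85, against 129, 127 and 94.2 CPM at day 45. The ages did not overlap, although the lowest day 85 library was only 1.18-fold above the highest day 45 library. Its log2 fold change of 1.06 (SE 0.33, 95% confidence interval 0.27 to 1.85) did not pass (adjusted p = 0.0984), and it was 0.64 without day 85 replicate 2. JUNB, a JUN protein that activates some AP-1 targets less strongly than JUN does, had 59.2, 163 and 41.7 CPM at day 85, against 32.0, 38.9 and 22.9 CPM at day 45. Day 85 replicate 2 stood apart, replicate 1 also lay above the day 45 range, and replicate 3 was only 1.07-fold above the highest day 45 library. The log2 fold change of JUNB was 1.49 (SE 0.54, adjusted p = 0.137), and 0.69 without day 85 replicate 2 (adjusted p = 0.0885). JUN lies on chromosome 6 at 141230121 to 141233597 and JUNB on chromosome 2 at 66505144 to 66507024.

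EGR1, a zinc finger factor induced through SRF, had 58.2, 187 and 182 CPM at day 85, against 49.9, 41.3 and 31.5 CPM at day 45. Its day 85 replicate 1 was close to the day 45 libraries, 1.17-fold above the highest of them, and the other day 85 libraries were far above. The log2 fold change of 1.80 (SE 0.46, 95% confidence interval 0.69 to 2.91) did not pass (adjusted p = 0.0685); without day 85 replicate 1 it was 2.15 and passed (adjusted p = 0.0440).

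EGR2, known for driving myelination in Schwann cells, had 86, 342 and 55 counts at day 85 and 30, 33 and 24 counts at day 45. These gave 6.65, 22.8 and 3.63 CPM at day 85, against 1.84, 2.38 and 1.57 CPM at day 45, and the ages did not overlap. The log2 fold change was 2.51 (SE 0.71, adjusted p = 0.0831) and did not pass. Without day 85 replicate 2 it was 1.41, and there it passed (adjusted p = 0.0304). The Schwann cell marker sum was also highest in that library, at 2710 CPM, as were the osteoclast, macrophage, erythroid and osteoblast sums. The part of these cells in the EGR2 level was not tested.

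EGR3, a relative of EGR1 needed for muscle spindles in mice, had 38, 94 and 32 counts at day 85, against 12, 11 and 5 counts at day 45, the fewest of the 9 genes there. Its levels were 2.94, 6.27 and 2.11 CPM at day 85, against 0.735, 0.793 and 0.327 CPM at day 45. The lowest day 85 library was 2.66-fold above the highest day 45 library, the widest gap among the 9 genes. The log2 fold change was 2.60 (SE 0.54), with an adjusted p of 0.0431 in edgeR. Without day 85 replicate 2 it was 2.01 and passed (adjusted p = 0.0201), whereas adjusted p ran from 0.0646 to 0.161 without each of the other libraries and was 0.0602 in limma-voom. EGR1 lies on chromosome 2 at 146156065 to 146160020, EGR2 on chromosome 14 at 71516963 to 71521113 and EGR3 on chromosome 14 at 7426276 to 7428160.

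DUSP1, the MAP kinase phosphatase, gave the smallest adjusted p of the 9 genes. It had 73.1, 75.9 and 68.6 CPM in the day 85 libraries, against 28.5, 25.9 and 26.6 CPM in the day 45 libraries. Within each age the highest library was 1.11-fold and 1.10-fold above the lowest, at day 85 and day 45, and the groups were far apart. The mean was 72.5 ± 3.71 CPM over the day 85 libraries and 27.0 ± 1.34 CPM over the day 45 libraries, and DUSP1 passed (log2 fold change 1.43, SE 0.11, adjusted p = 0.00937). With 1 day 85 library left out, DUSP1 passed each time (adjusted p = 0.0429, 0.00149 and 0.0419 without replicates 1, 2 and 3); with 1 day 45 library left out it did not (adjusted p = 0.0761, 0.0720 and 0.0501), at log2 fold changes of 1.45, 1.40 and 1.41. The gene lies on chromosome 16 at 55768409 to 55771513.

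KLF6, a zinc finger factor of the Krüppel-like family, had 113, 124 and 111 CPM at day 85, against 75.9, 80.4 and 86.3 CPM at day 45, again with no overlap. Its log2 fold change was the smallest of the 4 calls, 0.52 with an SE of 0.11 (adjusted p = 0.0448). It lost the call in 11 of 16 alternatives, among them upper-quartile scaling (adjusted p = 0.0508), total counts alone (0.0605), no filter on low counts (0.0534) and limma-trend on FPKM (0.0609 and 0.0613). It was also lost without each library except day 85 replicate 2 (adjusted p from 0.0888 to 0.181). ATF3, a stress-induced relative of the AP-1 proteins, had 70, 60 and 44 counts at day 85, against 57, 59 and 50 counts at day 45. Its level was 2.90 to 5.41 CPM at day 85 and 3.27 to 4.26 CPM at day 45, and the ages overlapped. Its log2 fold change was 0.16 with a 95% confidence interval of -0.52 to 0.84 (adjusted p = 0.743), and -0.11 without day 85 replicate 1. KLF6 lies on chromosome 10 at 72992245 to 73001823 and ATF3 on chromosome 9 at 143690556 to 143703872. No other row of the table overlapped the locus of any of the 9 genes.

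**Figure D2:**
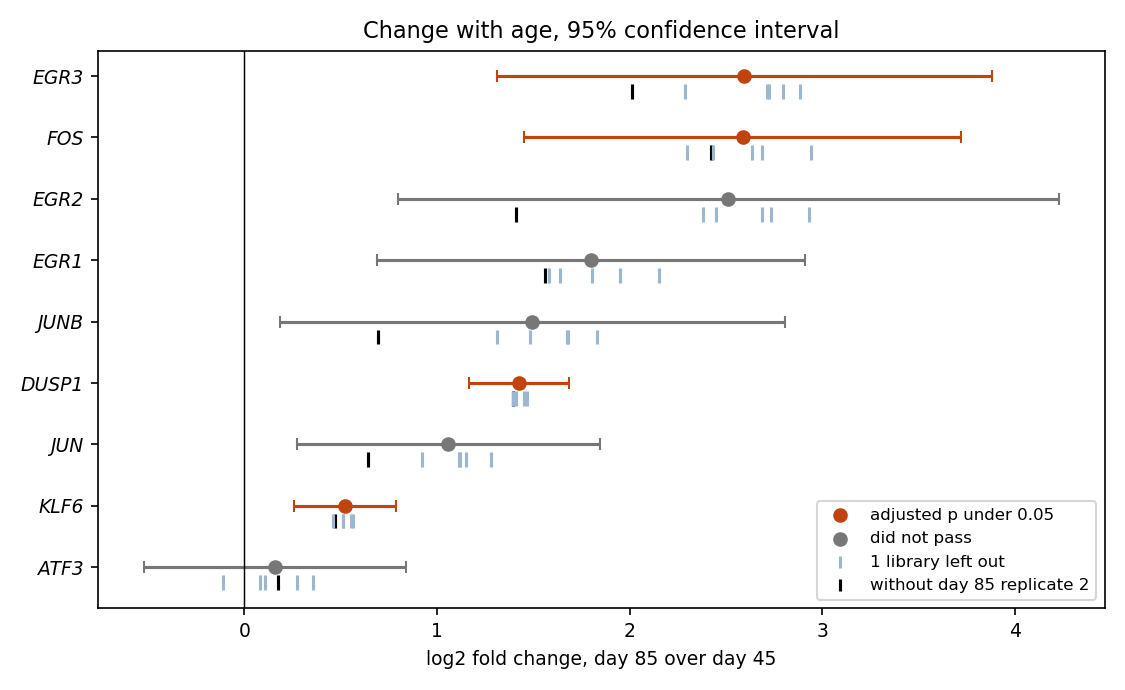
Log2 fold change of each gene, day 85 over day 45, with its 95% confidence interval (points; red where the adjusted p was under 0.05), and below each point the values with 1 library left out (ticks; black without day 85 replicate 2). The intervals of DUSP1 and KLF6 are narrow. The black tick lies far to the left of the others for EGR2 and JUNB, and less far for JUN and EGR3.

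The genes fell into several patterns over the day 85 libraries. FOS and EGR1 had at least 2-fold more CPM in replicates 2 and 3 than in replicate 1, a pattern met by 254 of 14421 tested genes with a mean of at least 1 CPM (1.76%) and by 0 of 77 other early response genes. JUNB, EGR2 and EGR3 were at least 2-fold higher in replicate 2 than in both other libraries, as were 636 of those 14421 genes (4.41%). JUN was 2.41-fold higher in replicate 2 than in replicate 1 and 1.73-fold higher than in replicate 3. The ratio of the highest to the lowest day 85 library was 6.29 for EGR2, 3.91 for JUNB, 3.33 for FOS, 3.21 for EGR1 and 2.97 for EGR3, and between 4.07% and 10.8% of tested genes had a larger one. For DUSP1 and KLF6 it was 1.11 and 1.12, and 91.9% and 90.3% of tested genes had a larger one. At day 45 the ratio was 2.43 or less for all 9. The 2-fold bound was set after the values were seen, and no test was made on these patterns. FOS was about as high in day 85 replicate 3 as in replicate 2, while the osteoclast marker sum of replicate 3 was 2333 CPM and that of replicate 2 was 13564 CPM; the part of these cells, of muscle or of tissue handling in the levels was not tested.

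**Figure D3:**
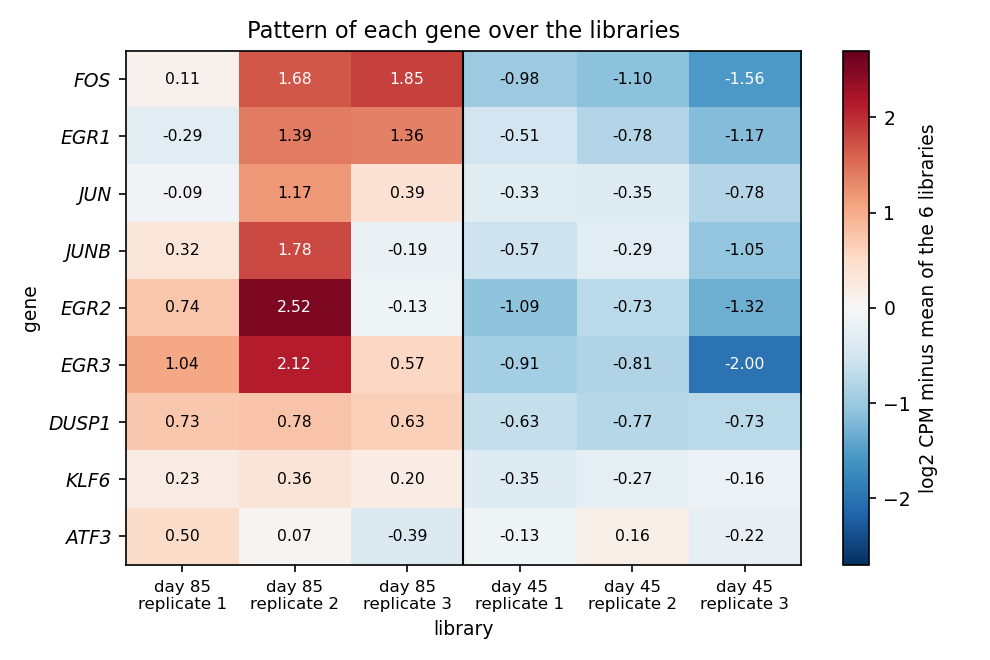
Log2 CPM of each gene minus its mean over the 6 libraries, with day 85 libraries left of day 45 libraries; red is above and blue below the mean. FOS and EGR1 are near their mean in day 85 replicate 1 (0.11 and -0.29) and high in replicates 2 and 3, while JUNB, EGR2 and EGR3 peak in replicate 2 (1.78, 2.52 and 2.12).

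The gene with the pattern nearest to FOS over the 6 libraries was EGR1, among 9683 named genes with a mean of at least 5 CPM. Likeness was measured as the root mean square difference in log2 CPM, each gene centred on its own mean, and EGR1 differed from FOS by 0.40. Next came DSC2, a desmosome cadherin, at 0.50, the interferon-induced OAS1 at 0.51, SRCIN1 at 0.57 and WDR86 at 0.61. DUSP1 ranked 50, JUN 85, EGR2 255, JUNB 270 and KLF6 1040, and EGR3 and ATF3 were below the level set for this ranking.

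Levels of the 9 genes were set against each other in the deposited FPKM, which divides by library total and by a factor per gene that stands for length. That factor exceeded the whole locus for EGR1 (6047 bases for a locus of 3956) and DUSP1 (4496 for 3105), so their FPKM is low by at least 1.53-fold and 1.45-fold beside a factor no longer than the locus. At day 85 the order by mean FPKM was JUN at 67.9 ± 27.5, FOS at 49.7 ± 24.9, JUNB at 45.2 ± 31.6, KLF6 at 27.8 ± 0.916, EGR1 at 22.9 ± 11.3, DUSP1 at 15.9 ± 0.824, EGR2 at 3.77 ± 3.36, EGR3 at 3.49 ± 1.87 and ATF3 at 1.20 ± 0.407. Among neighbours in that order, DUSP1 and EGR2, and EGR3 and ATF3, were the pairs whose libraries did not overlap. At day 45 JUN led at 33.6 ± 3.97 FPKM, before KLF6 at 19.9 ± 2.34, JUNB at 16.6 ± 3.45, FOS at 8.50 ± 1.31, EGR1 at 6.78 ± 1.28, DUSP1 at 6.05 ± 0.424, ATF3 at 1.09 ± 0.109, EGR2 at 0.688 ± 0.116 and EGR3 at 0.585 ± 0.218. There the libraries of JUN and KLF6, of JUNB and FOS, of DUSP1 and ATF3, and of ATF3 and EGR2 did not overlap. The places of EGR1 and DUSP1 depend on the factor. With it held to the length of the locus, a setting chosen after the values were seen, EGR1 averaged 35.02 ± 17.2 FPKM at day 85, above KLF6, and DUSP1 23.0 ± 1.19, while at day 45 EGR1 at 10.4 ± 1.95 and DUSP1 at 8.77 ± 0.613 stood above FOS.

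Within the FOS family, FOS had the largest share of FPKM in each day 85 library and FOSL1 in each day 45 library. FOSL1 and FOSL2, also called FRA1 and FRA2, are FOS relatives that lack the strong activation domain of FOS. FOS made up 43.1%, 46.2% and 69.0% of the summed FPKM of FOS, FOSL1 and FOSL2 in day 85 replicates 1, 2 and 3, against 24.5%, 21.9% and 19.4% at day 45. The ages did not overlap, and the two-sided exact permutation p was 0.1, the smallest that 3 against 3 libraries allow. FOSL1 was at 58.0, 65.3 and 51.4 CPM at day 85, against 64.4, 75.2 and 58.8 CPM at day 45, with a log2 fold change of -0.18 (adjusted p = 0.436). FOSL2 was at 14.4, 68.4 and 21.4 CPM at day 85, against 15.2, 13.9 and 13.6 CPM at day 45, so it was high in day 85 replicate 2, as JUNB was, and overlapped day 45 through replicate 1 (log2 fold change 1.29, adjusted p = 0.203). The FPKM factor of FOSL2 was 1263 bases for a locus of 11590, and shares between genes rest on these factors.

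**Figure D4:**
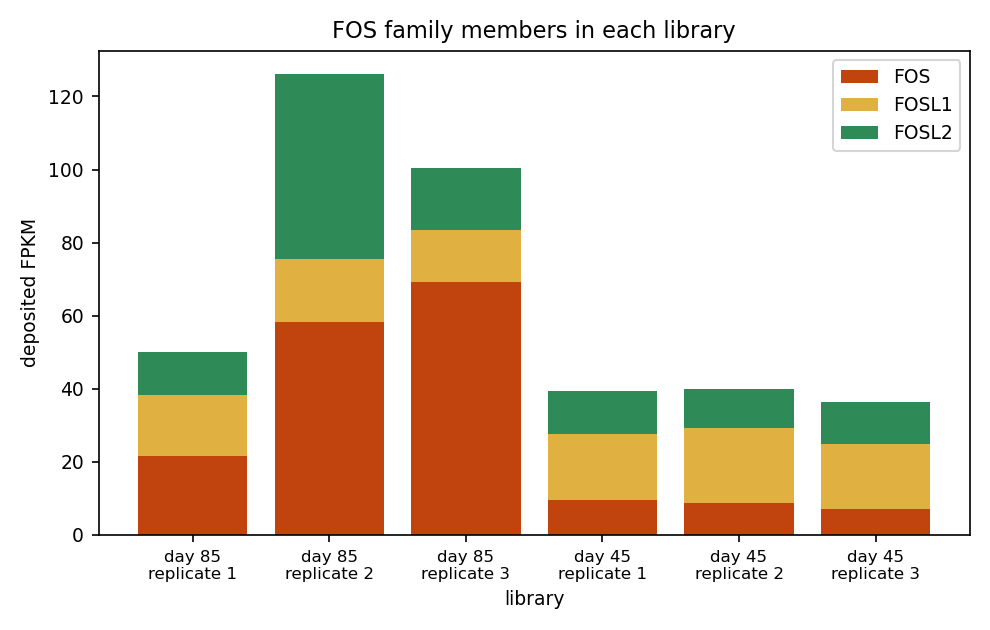
Deposited FPKM of FOS, FOSL1 and FOSL2, stacked, in each library, day 85 left of day 45. The FOS segment is larger than that of FOSL1 in the 3 day 85 libraries and smaller in the 3 day 45 libraries.

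In 4 wider lists of early response genes, 91 genes had a row and 77 were tested. These lists and those below were chosen with earlier results of these data known. Their shares beside all tested genes are therefore no independent test. ZFP36, CEBPB, NAB2, CDKN1A and CXCL8 had 0 counts in every library, and JUND, SIK1, ERRFI1 and ARC had no row. Of the 77 tested genes, 13 rose and 0 fell. The unadjusted p was under 0.05 for 33 higher and 3 lower genes, beside 15.8% and 13.3% of all tested genes, and the median log2 fold change was 0.52. Called in either direction were 16.9%, against 6.56% of all tested genes. DESeq2, which fitted 86 of the wider genes, called 29 higher and 3 lower. Of all genes it gave an adjusted p it called 12.6% higher and 10.8% lower. Leaving out day 85 replicate 2 gave 20 higher and 7 lower in edgeR, which then called 12.3% of all tested genes higher and 10% lower. Leaving out day 85 replicates 1 and 3 gave 2 and 3 higher, where 13 and 93 of all tested genes were. Without day 45 replicates 1, 2 and 3 edgeR called 1, 0 and 2 higher, out of 4, 0 and 14 over all tested genes. At an unadjusted p under 0.05 these fits had 29, 28 and 27 wider genes higher, beside 1497, 1724 and 2074 of all tested genes. Fits with 1 library left out tested 77 to 79 of the wider genes.

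Of 11 other AP-1 family genes 1 rose, or 9.09%, against 3.90% of all tested genes, so that share rests on a single gene. MAFK, a small MAF protein that acts as a dimer partner, had 9.51, 8.67 and 9.56 CPM at day 85, against 3.86, 4.62 and 4.32 CPM at day 45 (log2 fold change 1.12, adjusted p = 0.0259). ATF4, with the highest mean FPKM of the list at both ages, stood at 497 ± 22.6 CPM in day 85 libraries and 481 ± 75.4 CPM in day 45 libraries, with a log2 fold change of 0.05 (adjusted p = 0.867).

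Of 21 other early transcription factors 4 rose, or 19.0%, against 3.90% of all tested genes. KLF9, a Krüppel-like factor that responds to steroid and thyroid hormones, rose 8.03-fold, with 40.6, 41.3 and 32.8 CPM at day 85, against 5.02, 5.05 and 4.19 CPM at day 45 (adjusted p = 0.00351). BHLHE40, a basic helix-loop-helix repressor, had 108, 122 and 115 CPM at day 85, against 39.7, 43.1 and 39.8 CPM at day 45 (log2 fold change 1.49, adjusted p = 0.00811). For both, the ages were far apart beside the spread within each age. The repressor BCL6 rose 2.41-fold (adjusted p = 0.0287), and the fourth, IRF1, which was named after its values were seen, rose 2.04-fold. EGR4, which completes the EGR family, had at most 4 counts in a library and was not tested. NR4A1, an orphan nuclear receptor often induced together with EGR1, was named after its values were seen; it had a log2 fold change of 0.40 (adjusted p = 0.346).

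Of 26 genes of feedback and RNA decay 7 rose, or 26.9%, against the same 3.90%. DUSP4, another MAP kinase phosphatase, had 34.3, 43.3 and 29.9 CPM at day 85, against 15.5, 12.8 and 15.0 CPM at day 45 (log2 fold change 1.31, adjusted p = 0.0200). SPRY4, an inhibitor of receptor kinase signalling, rose 2.48-fold (adjusted p = 0.0259) and RGS1, a brake on G protein signals, rose 4.37-fold to 3.20 ± 1.19 CPM at day 85, against 0.730 ± 0.349 CPM at day 45 (adjusted p = 0.0433). RGS1 had only 7, 9 and 17 counts at day 45 and passed the filter on low counts only through day 85, where it was high. The others, NFKBIA, ZFP36L1, ZFP36L2 and BTG2, were named after their values were seen and rose 2.37-fold, 1.69-fold, 1.95-fold and 1.79-fold. Of 20 effector and secreted genes 1 rose, a share of 5% that is near the 3.90% of all tested genes. It was the clock gene PER1, which rose 1.62-fold to 243 ± 20.6 CPM at day 85, against 150 ± 23.4 CPM at day 45 (adjusted p = 0.0447). THBS1, thrombospondin, and the small GTPase RHOB, named for their mean CPM, did not pass (log2 fold changes -0.30 and 0.52, adjusted p = 0.260 and 0.0556).

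Of 25 factors and kinases that act upstream of immediate early genes, 1 rose, which at 4% is near the 3.90% of all tested genes, and the median log2 fold change was 0.24. It was the kinase RPS6KA3, which rose 1.93-fold (adjusted p = 0.0438). SRF, named after its values were seen, was at 37.3, 66.1 and 39.0 CPM at day 85, against 35.8, 35.5 and 38.4 CPM at day 45, so it too was highest in day 85 replicate 2. CREBBP and EP300, the coactivators, had log2 fold changes of 0.24 and 0.13 (adjusted p = 0.295 and 0.498). Among 17 heat shock and handling stress genes, 1 rose and 0 fell, and 5.88% called in either direction is near the 6.56% of all tested genes. The unadjusted p was under 0.05 for 3 higher and 6 lower ones, beside 15.8% and 13.3% of all tested genes, and the median log2 fold change was -0.10. The one that rose was TXNIP, a thioredoxin inhibitor, by 1.89-fold (adjusted p = 0.0352), and the chaperone HSP90AB1 averaged 1431 ± 17.7 CPM in day 85 libraries and 1914 ± 61.4 CPM in day 45 libraries (adjusted p = 0.0977). Of the names on this list, HSPA1A, HSPA1B, HSPA1L and DDIT4 had no row and HSPB1 had 0 counts in every library. These stress genes were therefore not tested.

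Of 20 skeletal genes linked to AP-1 or EGR factors, VEGFA rose 1.72-fold (adjusted p = 0.0465) and SOX9 fell 3.98-fold (adjusted p = 0.0400). That is 1 of 20 in each direction, against 3.90% of all tested genes called higher and 2.66% called lower. The unadjusted p was under 0.05 for 9 higher and 2 lower genes, beside 15.8% and 13.3% of all tested genes, and the median log2 fold change was 0.66. MMP13, a collagenase known as an AP-1 target, and CTSK, the main collagen-degrading protease of osteoclasts, were named after their values were seen and did not pass. MMP13 had 397, 1099 and 191 CPM at day 85, against 39.98, 189 and 53.8 CPM at day 45 (log2 fold change 2.58, adjusted p = 0.122). CTSK had 864, 3605 and 957 CPM at day 85, against 207, 518 and 255 CPM at day 45 (log2 fold change 2.47, adjusted p = 0.0841). The ages did not overlap for either gene. The lowest day 85 library was only 1.01-fold above the highest day 45 library for MMP13, and 1.67-fold for CTSK. Both genes were highest in day 85 replicate 2, the library with the highest osteoclast marker sum. CTSK is itself among the genes in that sum, as are MMP9, ACP5, NFATC1 and TNFRSF11A of the same skeletal list. Of that list COL2A1 and SOX9 are also cartilage markers, and SPP1, IBSP and BGLAP are osteoblast markers. Counts over the list thus share genes with the marker sums. The part of osteoclasts in the MMP13 or CTSK level was not tested.

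**Figure D5:**
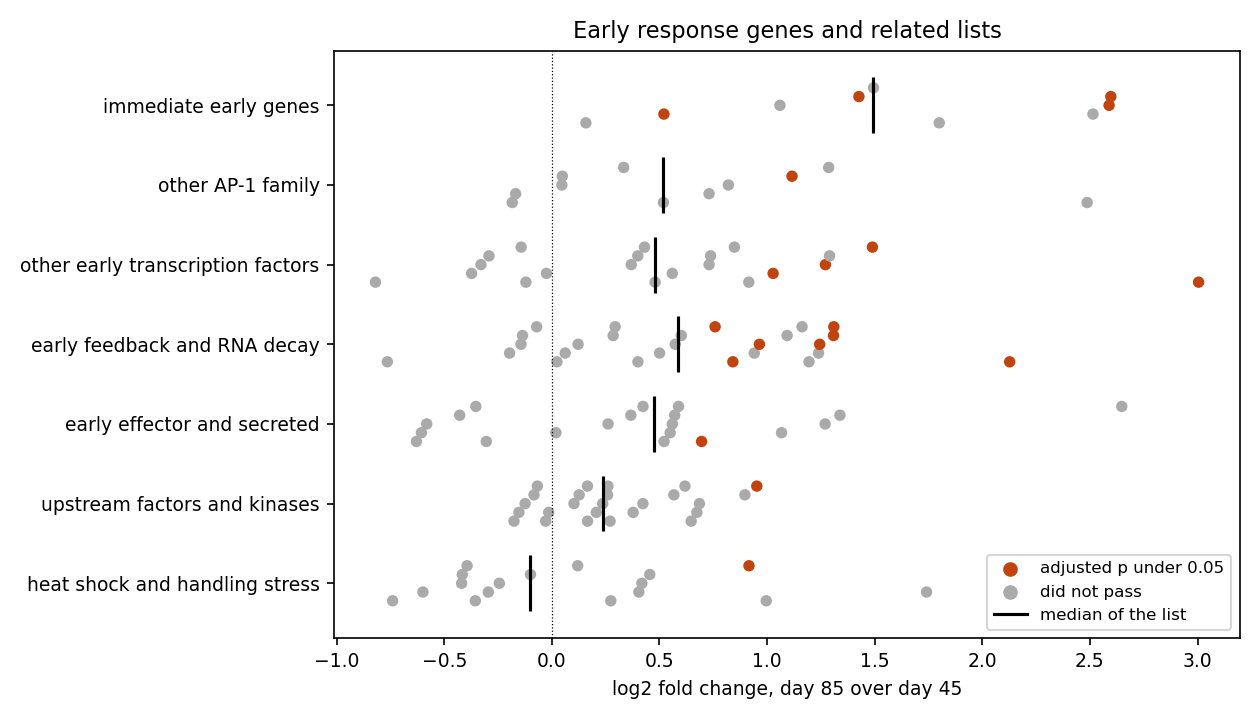
Log2 fold change of every tested gene in the immediate early genes and 6 related lists, 1 point per gene, red where the adjusted p was under 0.05, with the median of each list as a black bar. The median is 1.49 for the immediate early genes and -0.10 for the heat shock and handling stress list.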

How the data were processed

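Condyle libraries of day 85 and day 45 embryos, 3 each, were grouped by the titles. Per the labels' protocols, RNA was extracted from ground tissue, ribosomal RNA was removed and the second cDNA strand was degraded. The submitters' processing notes name HISAT2. Which program counted the reads, its strand setting and the genome build are not stated in the sources used here. The authors deposited whole-number read counts per gene and FPKM values, per the file headers. Over 15227 genes with at least 50 counts over the libraries and no library at 0, FPKM equalled the count over the library total and a fixed factor per gene, within 0.0307%. Counts were tested in R 4.3.3 with edgeR 4.0.16: filterByExpr with a minimum count of 10, TMM scaling, robust quasi-likelihood F test, age as the only factor. The SE is the size of the log2 fold change over the square root of F. CPM uses TMM-scaled library sizes, and 1 count is worth 0.0612 to 0.0773 CPM. Where a name had several rows, the row with the highest summed count was used. Gene symbols came from the table or, for 1774 rows, from a table of IDs and symbols. The test was tried on simulated counts.

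The 10 names and the gene lists were chosen with earlier results of these data known. From each list, up to 3 called genes per direction with at least 1 CPM were named, or with fewer than 2 calls also the 2 with the highest mean CPM. A gene that this rule selects is not reported here. As alternatives, libraries were scaled by RLE, by upper quartile or by totals, the filter was dropped or set to 1 CPM in 3 libraries, and other fits were DESeq2 1.42.0, limma-voom and limma-trend on log2(FPKM + 0.1 or 1) in limma 3.58.1, leaving out each library, and a replicate block.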

Additional observations from a re-analysis of the deposited data

How the results depend on the processing

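Over all genes, 586 were called higher and 400 lower. With total counts alone the split was 437 and 598, with upper-quartile scaling 527 and 489, with no filter 531 and 463, and with limma-trend on log2(FPKM + 0.1) and log2(FPKM + 1) 447 and 588, and 442 and 614; the median log2 fold change of all genes moved by less than 0.1 in every setting. DESeq2 called 2064 higher and 1770 lower. With 1 library left out, 0 to 1884 genes were called higher and 0 to 1528 lower. With no calls left (without day 45 replicate 2), the unadjusted p was under 0.05 for 1724 higher and 1332 lower genes. Of the immediate early genes, 4 were called higher, with DESeq2 7, with limma-voom 2 (DUSP1 and KLF6), and with 1 library left out 0 to 5; 0 were called lower in any setting. Of the wider early response genes, 13 were called higher and 0 lower, with DESeq2 29 and 3, and with 1 library left out 0 to 20 and 0 to 7. ATF3 turned to -0.11 without day 85 replicate 1, and ran up to 0.36 with other single libraries left out. The cause of these changes was not tested. The other 8 genes had a positive log2 fold change in all 16 alternatives. The labels do not say whether replicate numbers pair the libraries. Deviations of same-numbered libraries correlated at 0.00, 0.23 and 0.00. Day 85 replicate 2 correlated best with day 45 replicate 2, and day 85 replicate 1 with day 45 replicate 3. With 3 libraries per age, such correlations cannot decide whether the libraries are paired. With a replicate block, edgeR called 465 genes higher and 217 lower, 2 immediate early genes higher (DUSP1 and EGR3) and 10 wider early response genes higher. EGR3 rests on 5 to 12 counts per day 45 library.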

Other observations

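Besides JUNB, EGR2 and EGR3, 10 of the 77 wider early response genes were at least 2-fold higher in day 85 replicate 2 than in both other day 85 libraries; 4.41% of tested genes with at least 1 CPM were. They were FOSL2, BATF2, IER2, CSRNP1, DUSP5, SOCS3, CTGF, HBEGF, PLK3 and LIF, and none passed the edgeR test between ages. CTGF, a matrix-associated growth regulator, stood at 118, 284 and 110 CPM in day 85 replicates 1, 2 and 3, against 115, 131 and 104 CPM at day 45. HBEGF, a ligand of the EGF receptor, was at 10.2, 22.1 and 7.45 CPM at day 85, against 6.24, 5.19 and 4.25 CPM at day 45, and SOCS3, a cytokine feedback inhibitor, at 2.55, 8.60 and 2.51 CPM at day 85, against 2.14, 3.03 and 1.96 CPM at day 45. Of the day 85 libraries, the same one had the highest osteoclast, Schwann cell, cartilage, macrophage, erythroid, osteoblast, granulocyte and adipocyte marker sums. It had the lowest skeletal muscle, mural and endothelial sums, and the part of these cells was not tested.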
